A study of Mus musculus with 2 samples.

Results

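The genes described are the 5 members of the CXCR3 and CXCR6 chemokine axes measured in immune cells of mouse melanoma tumors: the ligands Cxcl9, Cxcl10 and Cxcl16 and the receptors Cxcr3 and Cxcr6. They were taken by name, as 5 of the 31053 genes in both count matrices, and were followed in cells with at most 25% mitochondrial transcripts. Tumor-infiltrating immune cells (TIIs) came from B6 mice bearing B16-OVA tumors, a B16 melanoma line that carries ovalbumin as a model antigen. One group had received PBS (control) and the other 10.5 mg creatine per intraperitoneal injection (creatine-treated), and tumors were harvested on day 14. The label for treatment protocol names a creatine injection for both samples, so the control is taken from its title and its treatment tag, both of which say that it was not given creatine. The harvest day and the 4 tumors combined per group are those of the labels, while other parts of the study name an earlier day and another number of mice. From each pool live CD45.2+ cells were sorted, 10000 cells were loaded and 1 droplet 3′ library was made. There was therefore 1 library per condition, no test of treatment was possible, and every interval given covers counting error only, not the spread between mice.

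CXCL9 and CXCL10 are secreted chemokines that myeloid cells make mainly in response to interferons, and both act on CXCR3, a receptor of activated effector T cells, regulatory T cells and NK cells. CXCL16 is made as a membrane-bound protein with a chemokine domain on a stalk and can be shed, and its receptor CXCR6 is known for the retention of effector and tissue-resident T cells in tumors, where Ccr7+ dendritic cells can present CXCL16 together with interleukin-15. In mouse, CXCL9 and CXCL10 are the CXCR3 ligands of the C57BL/6 strain, whose Cxcl11 gene does not give a protein. Cxcl11 was not among the genes counted here.

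On the mouse genome build GRCm38, Cxcl9 lies on chromosome 5 at 92321347 to 92328079 and Cxcl10 close by at 92346638 to 92348889, both on the minus strand. Cxcl10 sits inside Art3, a gene of the opposite strand. Cxcl16 is on chromosome 11 at 70453983 to 70459984 (minus strand) and overlaps the start of Zmynd15, which runs the other way. Cxcr3 is on the X chromosome at 101731535 to 101734269 (minus strand). Cxcr6 is on chromosome 9 at 123806475 to 123811760 (plus strand), inside Fyco1 of the opposite strand. All 5 are protein-coding genes.

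The 250 bases in front of the annotated start of Cxcl9 and Cxcl10, the CXCR3 ligands measured here, are shown as a description. They are from RefSeq (GRCm38.p6), read 5′ to 3′ along the gene, chr5:92328080-92328329 for Cxcl9 and chr5:92348890-92349139 for Cxcl10, both on the minus strand. Capitals mark matches to an interferon-stimulated response element (ISRE, searched as GAAANNGAAA), a gamma-activated site (GAS, searched as TTCNNNGAA), an NF-kB site (searched by its usual consensus) or an AP-1 site (searched as TGANTCA), on either strand.
Cxcl9: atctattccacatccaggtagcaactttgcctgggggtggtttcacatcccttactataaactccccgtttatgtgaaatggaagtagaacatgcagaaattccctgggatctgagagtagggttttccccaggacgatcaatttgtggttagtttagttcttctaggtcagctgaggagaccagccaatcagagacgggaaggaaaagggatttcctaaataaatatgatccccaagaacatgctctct
Cxcl10: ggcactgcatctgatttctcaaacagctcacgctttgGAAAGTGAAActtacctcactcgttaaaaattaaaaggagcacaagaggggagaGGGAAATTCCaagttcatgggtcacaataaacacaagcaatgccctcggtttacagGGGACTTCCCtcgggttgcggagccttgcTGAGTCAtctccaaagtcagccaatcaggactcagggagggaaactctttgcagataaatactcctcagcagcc
The Cxcl10 window held an ISRE match from 213 to 204 bases before the start, NF-kB matches from 159 to 150 and from 103 to 94, and an AP-1 match from 74 to 68 that reads the same on both strands. The Cxcl9 window held no exact match to any of these patterns. Among all 32851 promoter windows of this length, 2.98% held the ISRE pattern, 7.02% the GAS pattern, 3.90% the NF-kB pattern and 6.75% the AP-1 pattern. A match is a description of the letters and not of a bound site. The lack of an exact match in this window does not show that a gene has no such site. Any part of these letters in the levels or ratios was not tested.

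Windows for the receptors are shown for comparison, Cxcr3 at chrX:101734148-101734397 (minus strand) and Cxcr6 at chr9:123806227-123806476 (plus strand). Capitals mark a T-box pattern (searched as TCACACNT), since T-bet, a T-box factor, is known to drive Cxcr3.
Cxcr3: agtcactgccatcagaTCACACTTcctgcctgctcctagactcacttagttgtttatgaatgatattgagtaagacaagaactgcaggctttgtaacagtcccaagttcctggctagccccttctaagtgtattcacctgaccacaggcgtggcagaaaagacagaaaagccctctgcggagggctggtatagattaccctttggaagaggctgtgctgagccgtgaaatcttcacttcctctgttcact
Cxcr6: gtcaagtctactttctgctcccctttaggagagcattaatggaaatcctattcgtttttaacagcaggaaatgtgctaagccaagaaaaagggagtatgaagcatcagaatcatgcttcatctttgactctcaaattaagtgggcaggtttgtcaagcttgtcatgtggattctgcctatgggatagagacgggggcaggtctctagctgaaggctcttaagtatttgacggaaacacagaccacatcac
The Cxcr3 window held 1 T-box match, from 234 to 227 bases before the start, and the Cxcr6 window held none of the 5 patterns. The T-box pattern was in 2.95% of all windows.

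After the mitochondrial limit, 7241 of 7649 control cells and 6229 of 6503 creatine cells remained, with a median of 7688 and 8475 unique molecular identifiers (UMIs, each standing for 1 captured transcript) per cell and 79319769 and 72091124 UMIs in all. The libraries shared 29 cell barcodes. Ptprc, which encodes the sorted CD45, had a UMI in 95.6% of control cells and 98.4% of creatine cells. Cells were clustered without the 5 members and clusters were named from marker genes, as "-like" classes that may differ from those of the study. Ligand classes were C1q tumor-associated macrophage (TAM)-like, classical monocyte-like, Ace-Adgre4 monocyte-like (a cluster named by its leading genes), the dendritic cDC1-like and cDC2-like cells, and Ccr7+ DC-like cells, with 2079 control and 1556 creatine cells joined. Receptor classes were the T cell-like and NK cell-like clusters, with 4312 and 4061 cells joined. Levels are UMIs of the gene per 1000000 UMIs of the class (CPM), given in the order control, creatine, and a ratio is the log2 of creatine over control CPM with its exact 95% interval.

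Cxcl9 was made mainly by classical monocyte-like cells, C1q TAM-like cells and the conventional dendritic cells, and its CPM was higher in the creatine library in each of them. In classical monocyte-like cells it was 948 CPM in the control (638 cells) and 1946 CPM in the creatine library (546 cells), the highest level of any named class in both libraries. Cxcl10 and Cxcl9 were among the 10 genes that led this cluster. Only the 5 members were left out of the clustering, so genes that follow them could still have shaped it. Gbp2, the gene most like Cxcl10 (Pearson r 0.97), was among the 10 genes that led the larger classical monocyte-like cluster at a resolution of 1.5. The levels are therefore those of this cluster, not of all cells with classical monocyte markers. C1q TAM-like cells had 735 CPM in the control (865 cells) and 1297 CPM in the creatine library (326 cells). The log2 ratio was 1.04 (1.00 to 1.08) in the monocytes and 0.82 (0.78 to 0.86) in the macrophages, past the 1.5-fold limit used for a call. Genes past that limit on the higher side made up 7.75% of those with at least 100 UMIs in classical monocyte-like cells and 1.89% in C1q TAM-like cells.

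In dendritic cells, cDC2-like cells held Cxcl9 at 461 CPM in the control (255 cells) and 853 CPM in the creatine library (153 cells), a log2 ratio of 0.89 (0.79 to 0.99). cDC1-like cells, the cross-presenting type, held 298 CPM in the control (77 cells) and 714 CPM in the creatine library (35 cells), a log2 ratio of 1.26 (1.06 to 1.46). The background on the higher side was 5.54% of genes in cDC2-like cells and 6.18% in cDC1-like cells. The cDC2-like cluster passed 5 cDC2 markers but also 4 classical monocyte markers. When cells were assigned by marker gates instead of clusters, 49 control and 12 creatine cells were cDC2-like. The cDC1-like level rested on few cells, since 5 control cells and 2 creatine cells held at least 50% of the Cxcl9 UMIs of the class. Ccr7+ DC-like cells, the mature migratory type, had 140 CPM (44 cells) and 1100 CPM (15 cells), but 115 of their 211 creatine UMIs lay in 1 cell. Without the 6% of cells with the highest doublet scores, which removed 6 of those 15 cells, the levels were 157 and 78 CPM and the direction turned.

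The Ace-Adgre4 monocyte-like cluster was mixed, passing 6 nonclassical and 9 classical monocyte markers, and at a cluster resolution of 1.5 its cells fell mostly into a classical monocyte-like cluster (110 control and 304 creatine cells) and a nonclassical one (92 and 181). It was low for Cxcl9, with 16.1 CPM in the control (200 cells) and 23.9 CPM in the creatine library (481 cells). That was close to the 12.5 and 12.6 CPM found in NK cell-like cells, which are not known to make Cxcl9 in quantity and serve here as the measure of free RNA. With all 6 ligand classes joined, Cxcl9 was 693 CPM in the control and 1183 CPM after creatine, a log2 ratio of 0.77 (0.75 to 0.80), beside 5.19% of genes past 1.5-fold on the higher side. Without the Ace-Adgre4 monocyte-like class the joined ratio was 1.02.

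**Figure D1:**
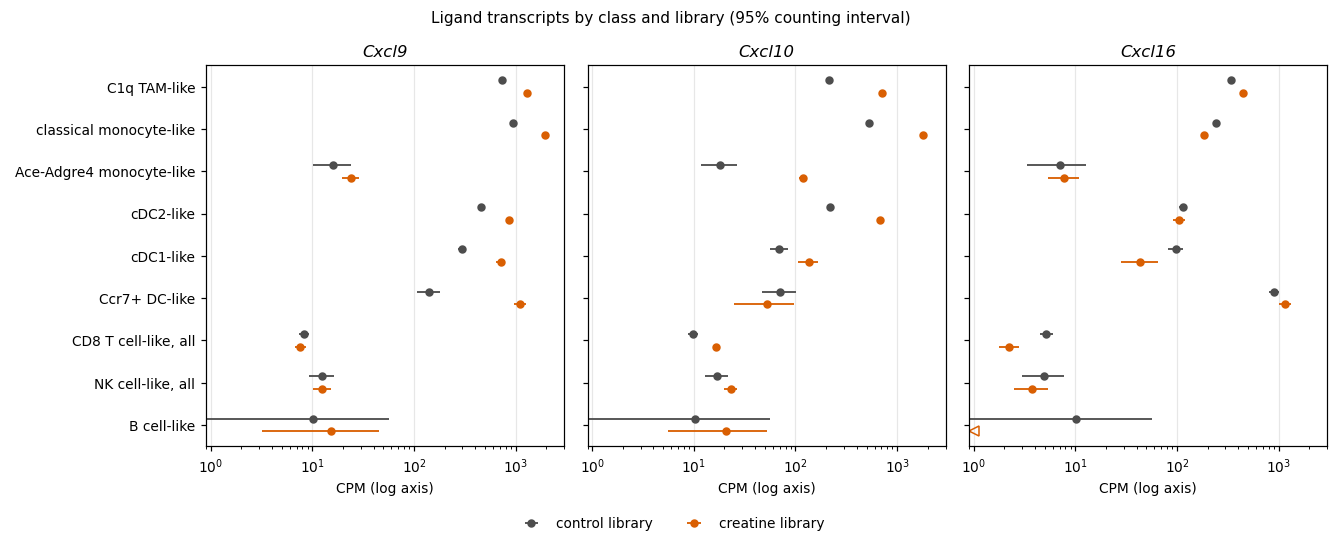
CPM of Cxcl9, Cxcl10 and Cxcl16 (log axis) in each cell class of the control and creatine libraries, with bars for the exact 95% Poisson interval (counting error only) and an open triangle at the left edge where no UMI was counted. Cxcl9 is highest in classical monocyte-like cells (948 and 1946 CPM), and Cxcl16 is highest in Ccr7+ DC-like cells (899 and 1163 CPM).

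Cxcl10 was higher in the creatine library by a larger factor than Cxcl9 in the monocytes, the macrophages and cDC2-like cells. Its level in classical monocyte-like cells was 533 CPM in the control and 1783 CPM after creatine, a log2 ratio of 1.74 (1.69 to 1.79). C1q TAM-like cells had 215 and 702 CPM, a log2 ratio of 1.71 (1.65 to 1.77). The cDC2-like cells were almost level with the macrophages, at 218 and 676 CPM (log2 ratio 1.63), and the counting intervals of the 2 classes overlapped in both libraries. With the ligand classes joined, Cxcl10 was 281 CPM in the control and 894 CPM after creatine, a log2 ratio of 1.67 (1.63 to 1.71).

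The remaining classes held little Cxcl10, and there too it sat in a few cells. In Ace-Adgre4 monocyte-like cells it was 18.2 CPM (26 UMIs) in the control and 118 CPM (518 UMIs) after creatine, with 7 of 481 creatine cells holding at least 50% of the UMIs; 4.2% of genes passed 1.5-fold on the higher side there. cDC1-like cells had 68.8 and 134 CPM, but 96 of the 100 control UMIs and 63 of the 77 creatine UMIs came from 1 cell in each library. Without the 6% of cells with the highest doublet scores they had 2.45 and 136 CPM. In Ccr7+ DC-like cells Cxcl10 had 28 UMIs in the control and 10 after creatine. Cxcl10 in NK cell-like cells was 16.9 and 23.0 CPM. A small NK cell-like cluster of 6 control and 22 creatine cells held 28 and 50 of those UMIs, and the main Klra4-Gzma cluster without it had 9.61 and 17.4 CPM.

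Because the C1q TAM-like cells had a median of 14105 UMIs in the control and 23171 after creatine, the share of cells with a UMI was compared after each cell was thinned to 2000 UMIs. At that depth, 35.6% of control and 57.0% of creatine C1q TAM-like cells held Cxcl9, and 12.9% and 30.2% held Cxcl10. Unthinned, 56.2% and 80.7% held Cxcl9. Classical monocyte-like cells, whose median UMIs were 10722 and 10568.5, held Cxcl9 in 32.9% and 44.4% of thinned cells and Cxcl10 in 18.4% and 46.6%. The same shares in NK cell-like cells were 2.69% and 2.87% for Cxcl9 and 1.67% and 2.63% for Cxcl10.

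Within a class the ligand transcripts were concentrated in a minority of cells. In the control, 58 of 865 C1q TAM-like cells held at least 50% of the Cxcl9 UMIs of the class, and 14 cells held that share of Cxcl10. The median C1q TAM-like cell had 1 Cxcl9 UMI in the control and 9.5 after creatine. In classical monocyte-like cells 12.5% of control and 36.1% of creatine cells had more than 10 Cxcl10 UMIs, so the higher level was spread over more cells. The most Cxcl10 UMIs in any such cell were 236 in the control and 279 after creatine.

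The number of Cxcl9 UMIs per Cxcl10 UMI was lower in the creatine library in the main ligand classes. Classical monocyte-like cells had 1.78 Cxcl9 UMIs for each Cxcl10 UMI in the control and 1.09 after creatine, and C1q TAM-like cells had 3.42 and 1.85. The same count was 2.11 and 1.26 in cDC2-like cells, and 4.33 and 5.31 in cDC1-like cells, where 1 cell held most of the Cxcl10. These are ratios of captured transcripts and are compared between libraries only. Art3, the gene on the strand opposite Cxcl10, had 20 and 41 UMIs in the joined ligand classes against 8301 and 19572 for Cxcl10.

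**Figure D2:**
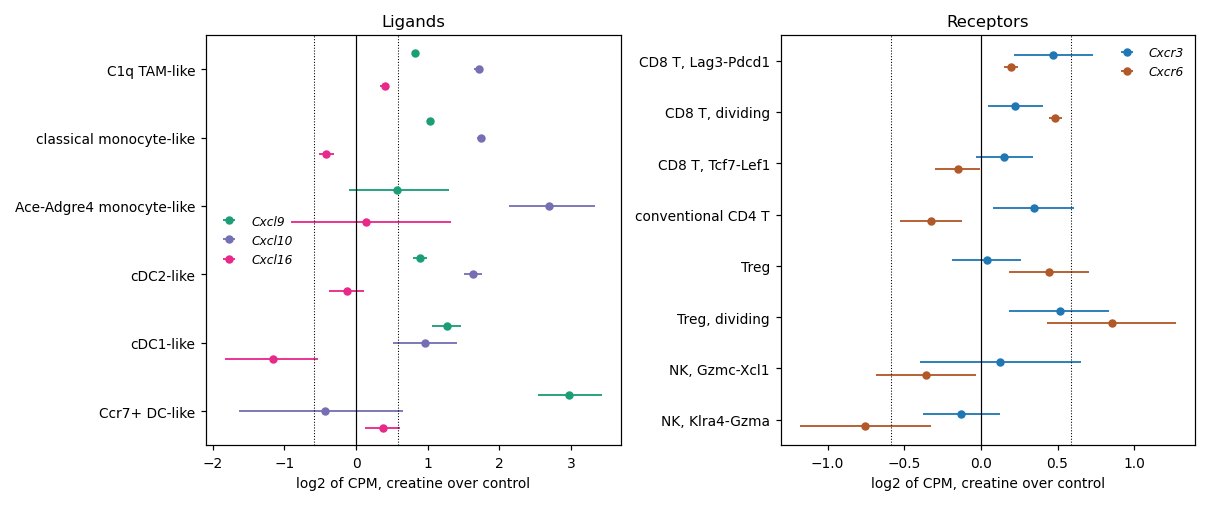
Log2 ratio of creatine over control CPM for the ligands in each ligand class and the receptors in 8 T and NK cell classes, with bars for the exact 95% counting interval and dotted lines at 1.5-fold. Cxcl10 lies at 1.74 in classical monocyte-like cells and 1.71 in C1q TAM-like cells, while Cxcl16 lies on opposite sides of 0 in them (-0.41 and 0.40).

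Cxcl16 followed another order. It was highest in Ccr7+ DC-like cells, with 899 CPM in the control (359 UMIs) and 1163 CPM in the creatine library (223 UMIs), a log2 ratio of 0.37 (0.12 to 0.62). C1q TAM-like cells came next with 338 and 446 CPM, a log2 ratio of 0.40 (0.34 to 0.46), and classical monocyte-like cells followed with 244 and 183 CPM, a log2 ratio of -0.41 (-0.52 to -0.31). None of these passed 1.5-fold. The lead of Ccr7+ DC-like cells held at equal depth, where 83.3% of control and 76.9% of creatine cells with 2000 UMIs held a Cxcl16 UMI, against 43.1% and 50.8% of C1q TAM-like cells and 1.03% and 0.574% of NK cell-like cells.

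Among the other dendritic cells, Cxcl16 was 115 and 105 CPM in cDC2-like cells, with a ratio whose interval included 0 (-0.37 to 0.11). It was 96.9 and 43.6 CPM in cDC1-like cells (141 and 25 UMIs), a log2 ratio of -1.15 (-1.83 to -0.53), beside 6.14% of genes past 1.5-fold on the lower side. When cells were assigned by marker gates instead of clusters, that ratio was 0.054 and the call was lost. Ace-Adgre4 monocyte-like cells had 7.0 and 7.74 CPM, near the 4.93 and 3.75 CPM of NK cell-like cells. Joined, the ligand classes gave 265 and 242 CPM, a log2 ratio of -0.13 (-0.18 to -0.08) that became 0.11 without the Ace-Adgre4 monocyte-like class. Zmynd15, which overlaps the start of Cxcl16 on the other strand, had 405 and 211 UMIs in these cells against 7821 and 5288.

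By origin, the joined ligand classes held 96.5% of all Cxcl9 UMIs of the control library and 96.2% of the creatine library. C1q TAM-like cells supplied 51% of the Cxcl9 UMIs in the control and 38.5% after creatine, and classical monocyte-like cells 35.0% and 48.6%. For Cxcl10 the macrophage share was 34.1% and 26.6% and the classical monocyte share 45.1% and 56.8%. Cxcl16 came mostly from C1q TAM-like cells in both libraries (60.7% and 64.9%), and the Ccr7+ DC-like cells, few in number, supplied 4.38% and 4.06%. These shares combine the level per class with the number and depth of its cells, and with 1 library per condition the numbers of cells were not compared.

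**Figure D3:**
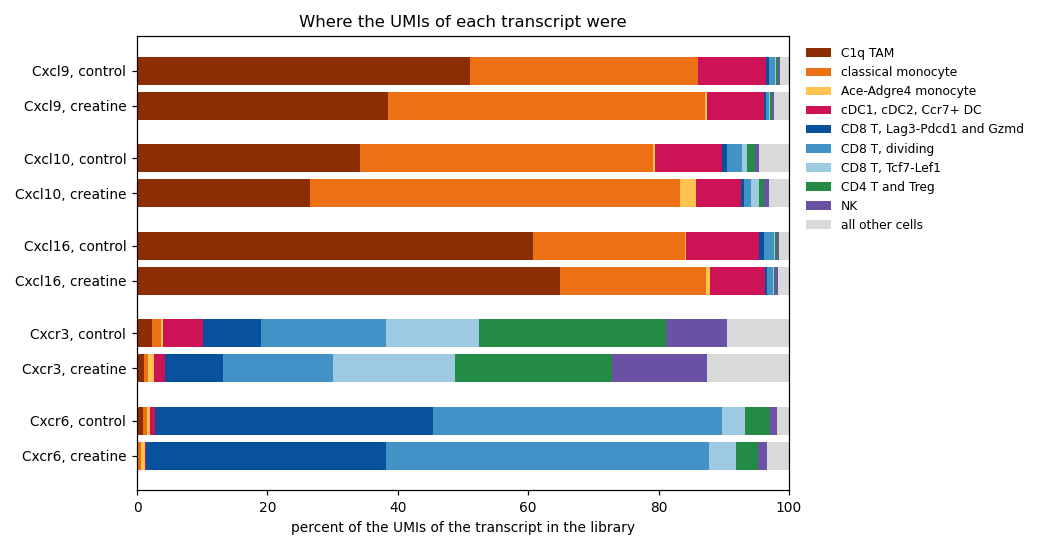
Percent of all UMIs of each member that came from each group of cell classes, as stacked bars for the control and creatine libraries. Macrophages and monocytes hold most ligand UMIs, and CD8 T cell-like cells hold 90.5% and 90.4% of Cxcr6 UMIs.

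The ligands were also detected together in the same cells. Among C1q TAM-like cells thinned to 2000 UMIs, 19.1% (95% interval 14.8 to 24.1) of control cells with Cxcl9 also held Cxcl10, against 9.48% (7.14 to 12.3) of those without Cxcl9. In the creatine library these shares were 39.7% (32.3 to 47.3) and 17.6% (11.5 to 25.2). In cDC2-like cells the shares were 50% against 9.18% in the creatine library and 27.3% against 9.57% in the control. In classical monocyte-like cells 8.11% of control and 25% of creatine cells held both, where the separate shares multiplied to 6.07% and 20.7%. Cxcl16 was tied to Cxcl9 in creatine classical monocyte-like cells (34.3% of cells with Cxcl9, 12.2% of those without), where the control had 37.7% and 29.4%.

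The CXCR3 ligands are textbook targets of the interferon-γ route, which runs through JAK kinases and induces the transcription factor IRF1 and the feedback inhibitor SOCS1. In C1q TAM-like cells Irf1 was 136 CPM in the control and 255 CPM after creatine (log2 ratio 0.90), Irf8, a partner factor of IRF1, was 292 and 511 CPM (0.81), and Socs1 was 45.8 and 121 CPM (1.402), each past 1.5-fold. The same genes passed in classical monocyte-like cells with log2 ratios of 1.13, 1.04 and 1.48, together with Jak2 at 0.60. Irf1 and Socs1 passed in all 5 of the C1q TAM-like, classical monocyte-like, Ace-Adgre4 monocyte-like, cDC1-like and cDC2-like classes. That included the Ace-Adgre4 monocytes, where Cxcl9 was low. Genes past 1.5-fold on the higher side made up 1.89%, 7.75%, 4.2%, 6.18% and 5.54% of those tested in the 5 classes, in the order given. The receptor gene Ifngr1 and the kinase gene Jak1 were within 1.5-fold in C1q TAM-like cells, with log2 ratios of -0.018 and 0.12.

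Genes of the type I interferon and NF-kB routes, which also feed Cxcl10, were counted where they had at least 100 UMIs. Those past 1.5-fold on the higher side were 1 of 8 in C1q TAM-like cells (Tnf, 0.62), 3 of 8 in classical monocyte-like cells (Stat2, Irf7 and Nfkb1, at 0.61, 0.59 and 0.75), 2 of 8 in Ace-Adgre4 monocyte-like cells, 2 of 6 in cDC1-like cells and 2 of 8 in cDC2-like cells (Irf7 at 0.75 and Tnf at 1.64), beside 1.89%, 7.75%, 4.2%, 6.18% and 5.54% of all genes tested in these classes. Ifng itself, the cytokine of activated T and NK cells, was 308 CPM in CD8 T cell-like cells of the control and 548 CPM in the creatine library, giving a log2 ratio of 0.83, beside 2.88% of genes past 1.5-fold on the higher side.

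Processing and partner genes differed by class. Adam10, a protease that sheds CXCL16, was 68.1 and 68.5 CPM in C1q TAM-like cells, and Adam17, a related protease, was 111 and 131 CPM. Dpp4, which trims the CXCR3 ligands, was past 1.5-fold higher in classical monocyte-like cells at 10.2 and 18.6 CPM. Il15 and Il15ra, which encode interleukin-15 and the receptor chain that presents it, were also higher there, with log2 ratios of 0.64 and 0.91. In that class 7.75% of all genes tested passed on the higher side. In C1q TAM-like cells the ratios of Il15 and Il15ra were 0.11 and 0.12. Il2rb, a receptor chain for interleukin-15, was 21.6 and 14.1 CPM in C1q TAM-like cells, where 3.53% of genes passed 1.5-fold on the lower side. The decoy receptor Ackr3 had 0 UMIs in the classes tested.

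Markers of other cell types were measured beside these values. Summed markers of classical monocytes were 2611 CPM in the joined ligand classes of the control and 5502 CPM in the creatine library, and pan-T markers there were 209 and 159 CPM. In the receptor classes, taken as background for the ligands, Cxcl9 was 9.30 and 9.14 CPM, Cxcl10 was 11.6 and 19.98 CPM, and Cxcl16 was 5.37 and 2.42 CPM. The C1q TAM markers in the same cells were 223 and 98.8 CPM. Their part in the ratios was not tested.

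Cxcr3 was carried by conventional CD4 T cell-like cells, Treg-like cells, Tcf7-Lef1 CD8 T cell-like cells and NK cell-like cells, with low levels in the dividing CD8 T cell-like clusters and in the one called Lag3-Pdcd1 here after listed CD8 markers. The latter had Lag3 and Cxcr6, but not Pdcd1, among the 10 genes that led it. The CD4 T cell-like cells had 195 CPM in the control (248 cells) and 248 CPM in the creatine library (272 cells), Treg-like cells 201 and 206 CPM, and Tcf7-Lef1 CD8 T cell-like cells 174 and 193 CPM. The type of the last class was not settled by its count of markers, as it passed 2 CD8 and 2 conventional CD4 markers. Without integration, cells led by S1pr1, Tcf7 and Lef1 lay in a cluster named CD4 T cell-like (678 and 792 cells). No separate Tcf7-Lef1 CD8 cluster was found there, so that name does not decide the type. The summed CD8 markers of the Tcf7-Lef1 class were 1603 and 1733 CPM and its summed CD4 T cell markers 266 and 290 CPM. In the control the counting intervals of these 3 classes overlapped from neighbor to neighbor, so their order was not resolved. NK cell-like cells held 79.8 and 86.9 CPM in the Gzmc-Xcl1 cluster and 61.8 and 56.6 CPM in the Klra4-Gzma cluster. The Lag3-Pdcd1 CD8 T cell-like cells held 26.1 and 36.2 CPM and the dividing ones 20.5 and 24 CPM. Mono/TAM-like cells (the macrophage and monocyte classes joined) held 4.42 and 4.40 CPM, the background for this receptor.

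The Cxcr3 differences between libraries were small. The largest ratio among classes with at least 50 cells in each library was 0.51 in dividing Treg-like cells (95.4 and 136 CPM), then 0.47 in Lag3-Pdcd1 CD8 T cell-like cells and 0.34 (0.08 to 0.61) in CD4 T cell-like cells. The CD4 value was -0.066 when cells were assigned by marker gates. Joined, the receptor classes gave 46.2 and 59.1 CPM, a log2 ratio of 0.35 (0.27 to 0.44), short of 1.5-fold, which 3.63% of genes passed on the higher side. It was 0.11 when each cell counted equally. In the small Gzmd CD8 T cell-like cluster Cxcr3 had 11 UMIs in 90 control cells and 0 UMIs in 38 creatine cells. The exact 95% interval of that count of 0 reaches up to 4.73 CPM. In γδ T cell-like cells it had 1 UMI in 5 control cells and 60 UMIs in 53 creatine cells (189 CPM), and no comparison was made. The unnamed Trdc-Klra6 cluster, outside these classes, held 181 control and 297 creatine Cxcr3 UMIs, 6.85% and 9.25% of all in each library. Its level was 102 and 135 CPM without the 6% of cells with the highest doublet scores.

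**Figure D4:**
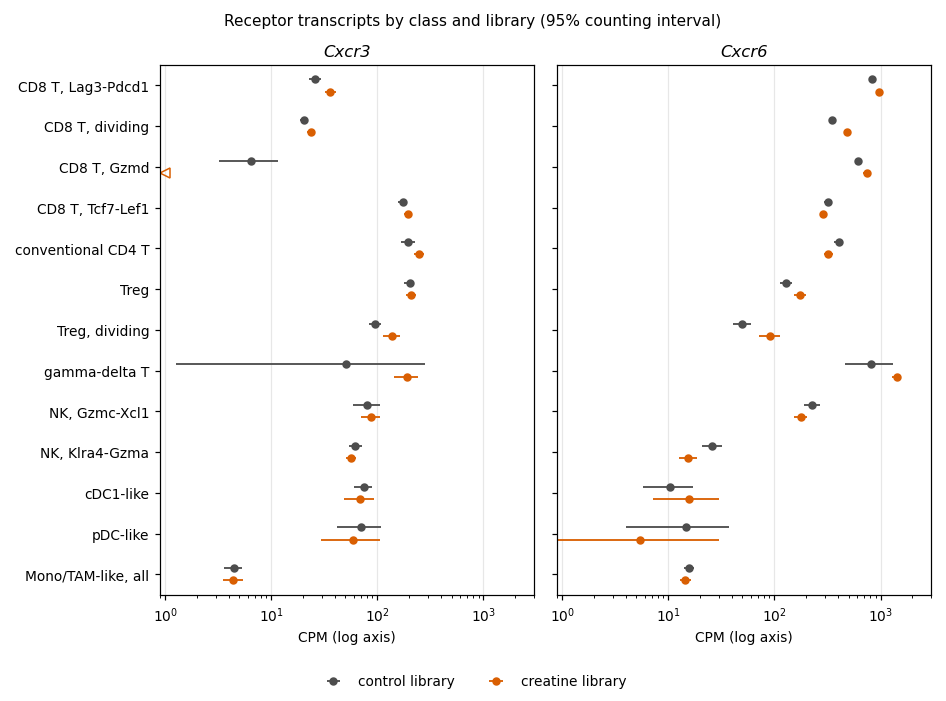
CPM of Cxcr3 and Cxcr6 (log axis) in each cell class of the control and creatine libraries, with bars for the exact 95% Poisson interval (counting error only) and an open triangle at the left edge where no UMI was counted. Lag3-Pdcd1 CD8 T cell-like cells hold much Cxcr6 (835 and 958 CPM) and little Cxcr3 (26.1 and 36.2 CPM), and Treg-like cells hold more Cxcr3 (201 and 206 CPM) than those CD8 cells do.

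With cells thinned to 2000 UMIs, Cxcr3 was found in 27.6% of control and 35.8% of creatine CD4 T cell-like cells, 26.0% and 26.1% of Treg-like cells, 28.3% and 30.5% of Tcf7-Lef1 CD8 T cell-like cells and 10.7% and 10.4% of Klra4-Gzma NK cell-like cells. The Lag3-Pdcd1 CD8 T cell-like cells had it in 5.73% and 7.54%, and Mono/TAM-like cells in 0.601% and 0.838%.

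Cxcr3 was not limited to lymphocytes. The cDC1-like cells held 74.3 and 68.1 CPM and plasmacytoid DC-like cells 69.9 and 59.0 CPM, values in the range of the NK cell-like clusters and above the 12.6 and 6.92 CPM of cDC2-like cells. Among thinned cDC1-like cells 10.5% of control (4.66 to 19.7) and 12.9% of creatine cells (3.63 to 29.8) had a UMI, so the signal was spread over cells and lay above that of Mono/TAM-like cells.

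Cxcr6 had another order among CD8 T cell-like clusters. Of these it was highest in the Lag3-Pdcd1 cluster, with 835 CPM in the control (983 cells) and 958 CPM in the creatine library (707 cells), a log2 ratio of 0.20 (0.15 to 0.24). The Gzmd cluster had 611 and 739 CPM, and the dividing cells had 347 and 487 CPM, a log2 ratio of 0.49 (0.45 to 0.53). Tcf7-Lef1 cells, named for factors of naive and stem-like T cells, had 320 and 288 CPM. In γδ T cell-like cells Cxcr6 was 1417 CPM in the creatine library (53 cells), the highest level of any class there, and 16 UMIs in 5 control cells. Nearly all cells of that cluster came from 1 library, so it may be particular to that library. Since Cxcr6 lies inside Fyco1 and the genes run on opposite strands, Fyco1 is given beside it, with 1253 and 1239 UMIs in the receptor classes against 18446 and 21582 for Cxcr6.

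Outside CD8 T cells, Cxcr6 was 403 and 321 CPM in CD4 T cell-like cells, a log2 ratio of -0.33 (-0.53 to -0.13). Treg-like cells had 129 and 175 CPM (0.44), and 105 and 121 CPM without the 6% of cells with the highest doublet scores. With all cells kept, 12 of 335 control and 8 of 228 creatine Treg-like cells held at least 50% of their Cxcr6 UMIs. Dividing Treg-like cells had 49.9 CPM in the control (139 cells) and 90.1 CPM in the creatine library (57 cells). This log2 ratio of 0.85 passed 1.5-fold beside 4.66% of genes in that class. It rested on few cells, since 9 control cells and 3 creatine cells held at least 50% of the Cxcr6 UMIs. Of the 82 creatine UMIs, 19 lay in 1 cell. Klra4-Gzma NK cell-like cells had 26.1 CPM in the control and 15.5 CPM after creatine, a log2 ratio of -0.75 that passed on the lower side beside 2.55% of genes. These NK cells had 15.8 and 9.37 CPM without the 6% of cells with the highest doublet scores. Mono/TAM-like cells, taken as background for this receptor, held 15.8 and 14.5 CPM with all cells kept. There the control level of these NK cells was above that of Mono/TAM-like cells. The creatine level of these NK cells was close to that of Mono/TAM-like cells. Without the highest doublet scores, C1q TAM-like, classical monocyte-like and Ace-Adgre4 monocyte-like cells held 7.58, 8.96 and 10.1 CPM in the control. After creatine they held 5.69, 6.63 and 8.28 CPM. At that setting these NK cells lay above each of those classes in the control and slightly above after creatine. The Gzmc-Xcl1 NK cell-like cluster stood well above, at 228 and 177 CPM.

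Cxcr6 UMIs per cell are given beside the depth of the cells. Lag3-Pdcd1 CD8 T cell-like cells had a mean of 7.30 Cxcr6 UMIs per cell in the control and 10.7 after creatine, while their median total was 8258 and 10736 UMIs. At 2000 UMIs per cell, 76.5% and 77.1% of them held Cxcr6. In dividing cells the thinned shares were 51.2% and 58.5%, and in CD4 T cell-like cells 45.2% and 28.7%. The joined receptor classes gave 401 and 467 CPM, a log2 ratio of 0.22 (0.19 to 0.25), and -0.039 when each cell counted equally, so no direction is drawn from it. CD8 T cell-like cells held 90.5% of all Cxcr6 UMIs in the control and 90.4% after creatine, but 42.2% and 44.6% of Cxcr3 UMIs. Those Cxcr3 shares include the Tcf7-Lef1 class, whose type was not settled and which held 14.2% and 18.8% of all Cxcr3 UMIs.

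Cxcr6 was found about as often in CD8 T cell-like cells with Cxcr3 as in those without. Among thinned Lag3-Pdcd1 CD8 T cell-like cells of the control, 74.5% (61.0 to 85.3) of those with Cxcr3 also held Cxcr6, against 76.6% (73.7 to 79.3) of those without. Tcf7-Lef1 cells gave 44.3% (35.3 to 53.5) and 36.2% (30.9 to 41.9), with overlapping intervals. Cells holding both made up 12.5% and 12.1% of Tcf7-Lef1 cells, 14.5% and 11.3% of CD4 T cell-like cells, and 4.27% and 5.83% of Lag3-Pdcd1 cells. In Klra4-Gzma NK cell-like cells they were 0.294% and 0.0915%.

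**Figure D5:**
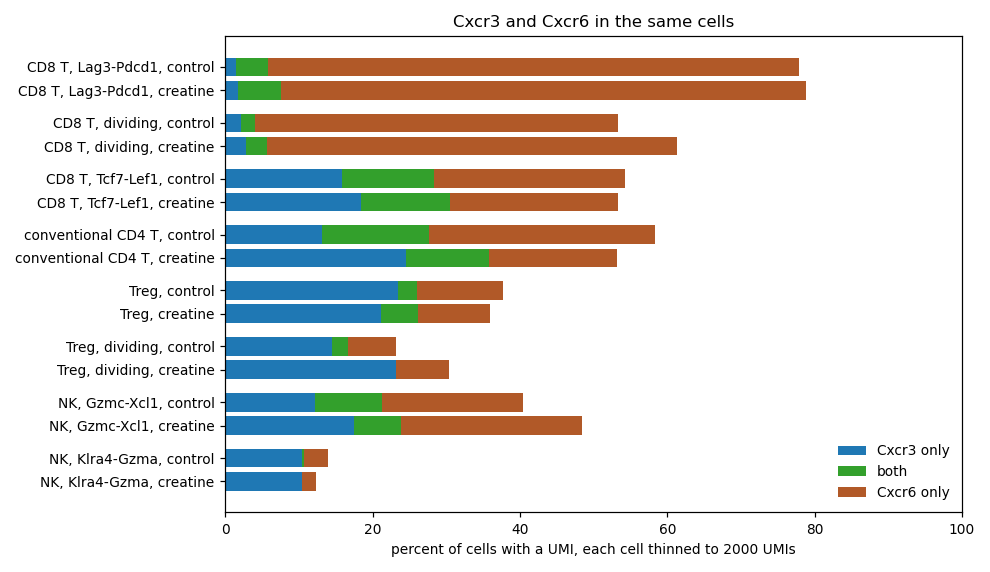
Percent of cells with a UMI of Cxcr3 only, of both receptors, or of Cxcr6 only, as stacked bars for each T and NK cell class and library, after thinning to 2000 UMIs per cell. Lag3-Pdcd1 CD8 T cell-like cells are mostly Cxcr6 only, with 4.27% and 5.83% holding both, while 12.5% and 12.1% of Tcf7-Lef1 CD8 T cell-like cells hold both.

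Genes known to act on these receptors were mostly within 1.5-fold. Of 9 listed genes of receptor transcription and tissue residency, 0 passed 1.5-fold in either direction in CD8 T cell-like cells, where 3.17% of all genes passed on the lower side. Tbx21, which encodes T-bet, was 40.4 and 56.7 CPM there, Runx3, a factor of the CD8 lineage, was 271 and 330 CPM, and Bhlhe40, a factor of resident and effector T cells, was 220 and 152 CPM. Among the 10 listed signalling genes only Rgs16, a regulator of G-protein signalling, passed, at 101 and 158 CPM, beside 2.88% of all genes on the higher side. The lymph node homing receptor Ccr7 was lower in CD8 T cell-like cells at 26.8 and 14.4 CPM. In CD4 T cell-like cells Ccr7 and S1pr1, a receptor for exit from lymphoid organs, were past 1.5-fold higher, with log2 ratios of 0.95 and 0.86, beside 4.19% of all genes. Over all receptor classes joined Ccr7 was lower, at 25.1 and 14.4 CPM, where 3.29% of genes passed on that side. NK markers summed to 1189 and 2662 CPM in these joined classes, so joined values mix the classes in other proportions, and the part of that in the joined ratios was not tested.

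The genes whose log2(CPM + 1) followed a member most closely were ranked among 9083 genes. The 24 points were the 12 named classes with at least 50 cells in each library. The cDC1-like, Ccr7+ DC-like, γδ T cell-like and Gzmd CD8 T cell-like classes were among those left out. For Cxcl9 they were Sectm1a, Creb5, Cnn3, Batf2 and Cttnbp2nl, with Pearson r from 0.97 to 0.95. For Cxcl10 they were Gbp2, Irf7, Cxcl9, Tor3a and Cnn3 (0.97 to 0.93), and for Cxcl16 Creb5, Gatm, Rab3il1, Rab7b and Cxcl9 (0.98 to 0.95). Those of Cxcr3 were Abhd8, Srrm2, Acsbg1, Faah and Prkd2 (0.95 to 0.94), and those of Cxcr6 AC147041.1, Trbc2, St6galnac3, Mrps16 and Gm47015 (0.92 to 0.89). Between members, r was 0.95 for Cxcl9 with Cxcl16, 0.94 for Cxcl9 with Cxcl10, 0.84 for Cxcl10 with Cxcl16 and 0.62 for Cxcr3 with Cxcr6. The points share libraries and depth, so these values are descriptions only.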

How the data were processed

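Live CD45.2+ TIIs were profiled as 1 control and 1 creatine 3′ droplet library. The deposited matrices hold raw UMI counts per gene and cell barcode, which the authors made with Cell Ranger 3.0.2 on mm10 (submitters' processing notes). Barcodes were kept from 300 UMIs and 100 genes upward, with a mitochondrial share no higher than 25%. Libraries were integrated and clustered in Seurat 5.3.0 (R 4.3.3) on 1996 variable genes without the 5 members, with 30 principal components at resolution 0.8. Clusters were named from 159 listed markers, needing 3 of the type's own markers (for T cell types 2 of their own, and 3 with the pan-T markers), by a rule set after the clusters were seen, and stayed unnamed otherwise. Scrublet's automatic threshold marked 2 control and 8 creatine cells, too few to be credible, so no doublets were removed in the main values, and an alternative left out the 6% of cells with the highest score. UMIs were summed per class and library, and CPM given with exact 95% Poisson intervals, and log2 ratios with exact conditional binomial intervals (scipy 1.17.1). The ratio intervals were run on simulated Poisson counts with known ratios. Those counts follow the model of the intervals, so the run checks the code and not the effect of UMIs clumped in single cells. UMIs were counted as molecules, and intervals cover counting error only. With 1 library per condition there was no test between conditions. A call was a CPM ratio past 1.5-fold among genes with at least 100 UMIs in the class. Shares of cells used cells thinned to 2000 UMIs, which left out 43 control and 50 creatine cells of the ligand classes and 208 and 84 of the receptor classes. Detection intervals were exact Clopper-Pearson. Named genes were the 5 members, listed genes of both axes and, per member, the 5 genes with the highest correlation. The members and lists were chosen with earlier results of these data known. Promoter windows were matched for 4 of 5 members in the RefSeq table, and for Cxcr3 the RefSeq start lies inside the GENCODE gene span, so that window overlaps it. Positions are from GENCODE on GRCm38. Alternatives changed the cell filter, integration, resolution, gating, doublets, weights, scaling (TMM from edgeR 4.0.16) and background. Some listed genes are not reported here, and neither are the counts of the lists that hold them.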

Additional observations from a re-analysis of the deposited data

Results flagged for a closer look

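Cxcl16 went opposite ways in the main myeloid classes, with a log2 ratio of 0.40 in C1q TAM-like cells and -0.41 in classical monocyte-like cells, and the difference was not tested. Cxcr6 had a log2 ratio of 0.85 in dividing Treg-like cells and -0.75 in Klra4-Gzma NK cell-like cells, also with no test of the difference. In an unnamed cluster led by Trdc and Klra6 (319 control and 327 creatine cells), outside the classes compared, Cxcl9 had a log2 ratio of 1.46 (67.9 and 187 CPM) and Cxcl10 of 2.34 (27.0 and 137 CPM). Without the 6% of cells with the highest doublet scores these levels were 8.22 and 10.5 CPM for Cxcl9. For Cxcl10 they were 25.8 and 77.0 CPM. With all cells kept, 1 cell in each library held 114 of the 128 control and 400 of the 422 creatine Cxcl9 UMIs. Of the 309 creatine Cxcl10 UMIs, 142 lay in 1 cell. At a cluster resolution of 1.5, a cluster led by Trdc and Klra6 (294 control and 303 creatine cells) was named γδ T cell-like.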

How the results depend on the processing

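No paired analysis was possible because the groups share only 1 replicate number and hold 1 library each. Cxcl9 and Cxcl10 kept their direction and stayed past 1.5-fold under all 12 alternatives each, Cxcl16 kept its direction under 10 of 12, Cxcr3 under 9 of 9 and Cxcr6 under 8 of 9. Marker gates gave joined log2 ratios of 0.89 for Cxcl9, 1.76 for Cxcl10, -0.077 for Cxcl16 and 0.21 for Cxcr3. Equal weight for each cell gave 0.73, 1.51, -0.51, 0.11 and, for Cxcr6, -0.039. Equal weight for each class gave 1.19 for Cxcl9, 1.63 for Cxcl10, 0.20 for Cxcl16 and 0.31 for Cxcr6. Leaving out the highest doublet scores gave 1.75 for Cxcl10, and subtracting background gave 1.72 for Cxcl10 (NK cell-like) and -0.076 for Cxcl16 (B cell-like). That Cxcl16 background was 1 UMI in the control and 0 UMIs in the creatine library, too few to measure a background. CPM without mitochondrial and ribosomal genes gave 0.74 for Cxcl9 and 0.18 for Cxcr6, and TMM factors 0.80 and 0.19. Without the Ace-Adgre4 monocyte-like class, an alternative chosen after seeing the data, the values were 1.02, 1.89 and 0.11 for the ligands. Single ligand classes were also tried, and for the receptors the CD8 T, CD4 T, Treg and NK cell-like types, each as a whole. Clusters within those types had only levels without high doublet scores. There Cxcr6 in dividing Treg-like cells was 45.4 and 74.7 CPM, and Cxcr3 in Gzmc-Xcl1 NK cell-like cells was 85.0 and 84.9 CPM. For the classes and whole types the direction held in 176 of 182 comparisons. Without integration, the CD4 T cell-like type had 678 control and 792 creatine cells, with no separate Tcf7-Lef1 cluster. Cxcl9 turned in Ccr7+ DC-like cells without high doublet scores (-1.01), and Cxcl10 there with equal weight for each cell (1.28). Cxcl16 turned in cDC2-like cells without high doublet scores (0.047) and in cDC1-like cells by marker gates (0.054). Cxcr3 turned in CD4 T cell-like cells by marker gates (-0.066). It also turned in all Treg-like cells, dividing ones included, with equal weight for each cell (-0.076). The causes were not tested. Few cells limit the precision for rare classes, with 35 cDC1-like and 15 Ccr7+ DC-like cells in the creatine library.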

Other observations

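Among 28 cells of a small NK cell-like cluster, Cxcl10 had 28 UMIs over 6 control cells and 50 UMIs over 22 creatine cells. In Tcf7-Lef1 CD8 T cell-like cells Cxcl10 was 35.6 CPM in the control and 81.1 CPM in the creatine library, against 9.84 and 16.6 CPM over all CD8 T cell-like cells, and 23.9 and 58.7 CPM in Treg-like cells. At least 50% of these UMIs lay in 2 of 457 control and 6 of 499 creatine Tcf7-Lef1 cells. For Treg-like cells it was 5 of 335 and 7 of 228 cells. The few melanoma-like cells (18 and 14), which the CD45.2 sort should have left out, held Cxcl10 at 192 and 187 CPM and had 4 and 104 UMIs of Cxcl9. Of the 135 control Cxcl10 UMIs 85 lay in 1 cell, and of the 152 creatine ones 39 did. For Cxcl9, 1 cell held 56 of the 104 creatine UMIs.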
